A study of Mus musculus with 6 samples.

Results

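Ighm, the heavy-chain constant gene of immunoglobulin M, and 9 further genes of the B lineage were followed in RNA-seq libraries of RAW264.7 cells. RAW264.7 is a macrophage-like mouse line raised from a tumour that Abelson leukemia virus induced in a BALB/c mouse. The 3 libraries of the SKI-II group came from wild-type cells given SKI-II, a compound known as a sphingosine kinase inhibitor, at 4 μg/mL for 24 h, and the 3 libraries of the DMSO group came from the same line given the vehicle. The labels do not say whether libraries of a group came from separate cultures. Treatment and RNA extraction followed the protocol of a qPCR assay that was run with biological replicates, and the methods say of all experiments in general that they were repeated independently. Neither says how the 3 libraries of a group map to such repeats, so p-values measure the spread between these samples. The 10 members were taken by symbol from the 49315 genes of the count table. Ighm was chosen by its own counts in these libraries, which almost vanished with SKI-II, so its values are given as a description without a test. The other 9 members, Igkc, Cd79a, Cd79b, Pou2f2, Pou2af1, Ikzf1, Ebf1, Blnk and Btk, address whether regulators and partners of the B-cell receptor fell along with it.

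In B cells a heavy chain is made from a locus whose variable, diversity and joining segments are cut and rejoined before the constant region of Ighm is spliced on. The heavy chain pairs with a light chain, such as the kappa chain with its constant region from Igkc, and sits on the membrane beside Cd79a and Cd79b, which carry the signal inward. The adaptor Blnk and the kinase Btk pass that signal on, while Ebf1, Ikzf1, Pou2f2 and its coactivator Pou2af1 are transcription regulators of the lineage. Macrophages share part of this machinery, among others Ikzf1, Blnk and Btk, but assembled immunoglobulin genes are a mark of lymphocytes.

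Ighm (ENSMUSG00000076617) lies on the minus strand of GRCm38 at chr12:113418558-113422730, and the joining segments lie just upstream of it. The joining segments that held reads are shown because their counts went with those of Ighm. Each is the whole annotated segment, 5′ to 3′ on the minus strand of GRCm38, with TGGGG, any 4 bases, GG and any base in capitals, the stretch that codes for the tryptophan and glycines shared by heavy joining segments. The last sequence is an entry annotated as a miRNA that consists of the tandem repeats lying between the joining segments and Ighm, with each GAGCT in capitals.
Ighj1, chr12:113429781-113429833: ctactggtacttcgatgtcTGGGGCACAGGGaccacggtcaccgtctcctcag
Ighj3, chr12:113429085-113429132: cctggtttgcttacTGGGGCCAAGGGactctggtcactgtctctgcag
Ighj4, chr12:113428514-113428567: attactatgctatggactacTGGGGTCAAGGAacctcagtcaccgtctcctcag
Gm22175, chr12:113425150-113425227: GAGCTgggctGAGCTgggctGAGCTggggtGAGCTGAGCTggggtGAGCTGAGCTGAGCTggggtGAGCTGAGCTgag

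With SKI-II, Ighm went from 692 to 2 counts summed over the libraries of a group, and the joining segments beside it went to 0. The regulators did not follow as a group. Pou2f2 and Blnk fell to 0.517 and 0.552 of their DMSO levels, Ikzf1 and Btk did not pass the test, and the other 5 members held no or almost no counts in either group. Of the 4 members other than Ighm that had enough counts for the test, 2 fell and 0 rose, whereas 19.7% of all 12274 genes tested fell and 18.4% rose. The count of 0 is from edgeR's quasi-likelihood test, and it was also 0 at an unadjusted p under 0.05, with DESeq2 and with limma-voom. The median log2 fold change of these 4 members was -0.46, beside 0.00 over all genes tested. When a log2 fold change past 1 was also required, 0 of the 4 were lower and 0 higher in edgeR, DESeq2 and limma-voom, whereas 7.45% of all genes tested were lower and 8.29% higher in edgeR.

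**Figure D1:**
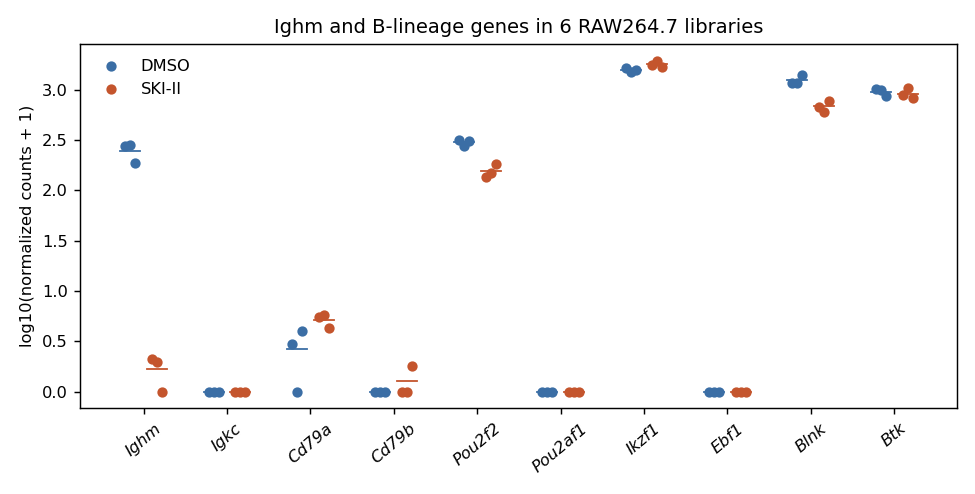
The plot shows the normalized counts of each member in each library, as log10(normalized counts + 1), for DMSO (blue) and SKI-II (orange). Each point is 1 of 3 libraries and each line marks the log10 of the group mean + 1. Ighm drops to between 0 and 1.12 normalized counts, Pou2f2 and Blnk step down without overlap, and Igkc, Pou2af1 and Ebf1 lie at 0 throughout.

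Ighm held 284, 222 and 186 counts in the 3 DMSO libraries and 1, 1 and 0 counts in the 3 SKI-II libraries. Every DMSO library was far above every SKI-II library, and DMSO replicate 3 was the lowest of its group although it was the deepest. After scaling for library size, Ighm stood at 247 ± 54.3 normalized counts (SD, n = 3) in DMSO and 0.691 ± 0.604 (SD, n = 3) in SKI-II. The SKI-II level was a ratio of 0.00258 of the DMSO level from the summed counts, with an exact 95% counting interval (Clopper-Pearson) of 0.000312 to 0.00936. Expressed the other way, Ighm was 387-fold lower, and the interval of 107 to 3205 is wide because only 2 counts stand behind the SKI-II value. Without SKI-II replicate 3, which had no Ighm count, the ratio was 0.00421. Such intervals and the limits set by counts of 0 cover counting error only. Because these are bulk samples, fewer cells with the transcript and less transcript per cell cannot be told apart. In DMSO, Ighm was an ordinary rather than an abundant transcript, at the 34.8 percentile of the genes tested by mean normalized count.

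Among the annotated segments and constant genes of the heavy-chain locus, those around Ighm held nearly all of the counts. Ighj1, a joining segment, had 19, 9 and 10 counts in the DMSO libraries and 0 in each SKI-II library. Ighj4 had 6, 1 and 0 counts in DMSO, Ighj3 had 3, 2 and 0, and both were at 0 with SKI-II, while Ighj2 was at 0 in all 6 libraries. Together the 4 joining segments held 28, 12 and 10 counts in DMSO, which is 7.23% of the Ighm counts, and 0 with SKI-II, at least 18.7-fold lower by a limit of 3 counts over the group (11.4-fold without SKI-II replicate 3, the deepest library). Ighd4-1, the diversity segment nearest to the joining segments, had 2 counts in 1 DMSO library. The entries made of switch repeats, Gm22175, Gm24022 and Gm25747, had 3, 4 and 3 counts over the DMSO libraries and 0 with SKI-II.

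Taking every entry from Ighm to Ighd4-1, a span of 7.81 kb, and leaving out Ighm itself, 7 of 9 entries held a count. Their sums were 37, 15 and 10 in DMSO and 0 in each SKI-II library, at least 23.1-fold lower over the group (14.2-fold without SKI-II replicate 3 and 14.7-fold without DMSO replicate 1). In DMSO these entries had 8.96% of the counts of Ighm, so that the 2 Ighm counts left with SKI-II would go with 0.179 counts here, and 0 counts cannot show whether the proportion changed. Ighd, the constant gene of immunoglobulin D just downstream, had 3, 4 and 1 counts in DMSO and 0 with SKI-II, at least 2.99-fold lower (1.83-fold without SKI-II replicate 3).

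**Figure D2:**
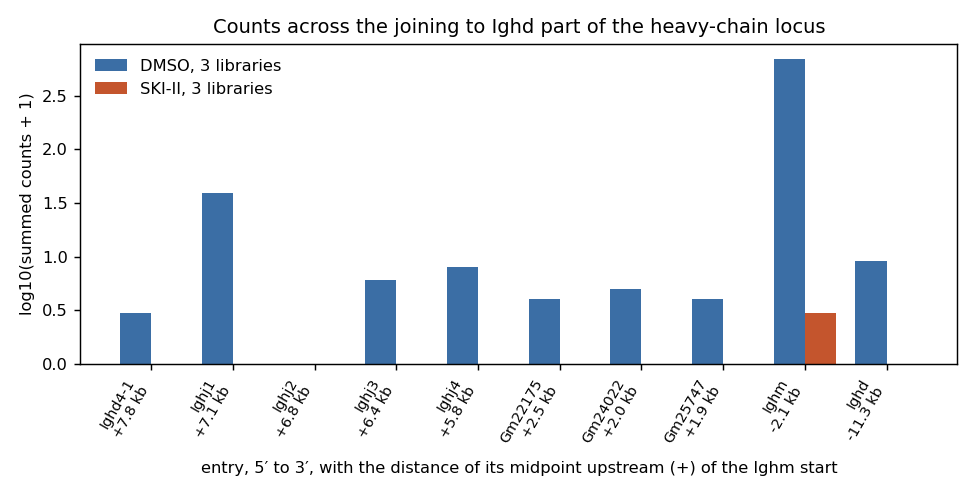
Bars give log10(summed counts + 1) over the 3 libraries of each group for the entries with a count, and for Ighj2, from Ighd4-1 to Ighd. The label under each entry gives the distance in kb of its midpoint upstream (+) or downstream (-) of the Ighm start. Ighm (692 counts in DMSO) and Ighj1 (38 counts) stand highest, and Ighm is the single entry with counts (2) in SKI-II.

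No variable segment was read in any library. Of 429 immunoglobulin genes in the table, 8 held a count, and of the 377 variable genes and pseudogenes among them 0 did, including the 113 variable genes of the heavy-chain locus. All 178 kappa and lambda genes were at 0 as well. The remaining constant genes were close to empty, with 1 count for Igha in DMSO and 1 for Ighg2c in SKI-II. A pair of processed pseudogenes lying within the locus also held counts, Gm9134 with 0, 0 and 0 in DMSO against 3, 3 and 1 with SKI-II, and Gm9517 with 0, 2 and 1 against 0, 0 and 4. They are named after their values were seen. RAW264.7 comes from BALB/c and GRCm38 from C57BL/6J, and reads that match several places may not have been counted. Whether either kept reads from variable segments was not tested.

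Farther along chromosome 12 the genes tested did not share the size of the Ighm change. Within 500 kb of Ighm, 8 other genes were tested, of which 3 fell and 0 rose at an adjusted p under 0.05 in edgeR, beside 19.7% and 18.4% of all genes tested. Tedc1, a component of a tubulin complex and the nearest of them, 252.5 kb downstream, fell from 309 ± 83.9 to 94.7 ± 22.2 normalized counts (SD, n = 3; log2 fold change -1.71, SE 0.25, edgeR adjusted p = 0.000748). The others that fell were Crip1, at -0.98, and Mta1, at -0.83, both named after their values were seen. The nearest gene tested on the upstream side, Gm9260, lies 2560 kb away beyond the variable segments and did not pass the test (0.35, SE 0.55, edgeR adjusted p = 0.657).

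The light chain and the signalling subunits of the receptor were missing or nearly so. Igkc was at 0 in all 6 libraries, where 3 counts over the group would be 0.0659 CPM in DMSO and 0.0588 in SKI-II. Cd79a had 2, 0 and 3 counts in DMSO and 4, 5 and 4 with SKI-II, and Cd79b had a single count, in SKI-II replicate 3. The SKI-II counts of Cd79a all lay above those of DMSO, but the ratio of 2.32 had an exact 95% counting interval of 0.777 to 8.32. When 1 library was left out, the ratio ran from 1.67 (without DMSO replicate 2) to 3.73 (without DMSO replicate 3). Both genes were too low for the test.

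Among the transcription regulators, Pou2f2 fell, Ikzf1 did not pass the test, and Pou2af1 and Ebf1 were at 0 in all 6 libraries. Pou2f2 encodes Oct2, which binds the octamer motif of immunoglobulin promoters and enhancers. Its normalized counts were 314, 273 and 308 in DMSO and 134, 146 and 182 with SKI-II. The groups did not overlap, and the means went from 298 ± 22.1 to 154 ± 24.7 (SD, n = 3). On the log2 scale this was a change of -0.95 (SE 0.18, edgeR adjusted p = 0.00266). Non-overlapping groups with SKI-II lower were seen for 25.5% of all genes tested. Pou2f2 overlaps D930028M14Rik on the opposite strand, and since the strandedness of the counting is not given, reads of the 2 genes cannot be told apart with certainty.

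Ikzf1 encodes Ikaros, a zinc-finger regulator needed early in lymphoid development and also present in myeloid cells. It stood at 1618, 1481 and 1547 normalized counts in DMSO and 1760, 1941 and 1685 with SKI-II. All SKI-II values were above all DMSO values, as for 24.8% of the genes tested. The difference of 0.21 on the log2 scale (SE 0.11, approximate 95% interval -0.01 to 0.44) did not pass the test (edgeR adjusted p = 0.169). Ikzf1 also overlaps antisense entries, Gm11999 and Gm12000.

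Pou2f1, the closest relative of Pou2f2 and the widely expressed Oct1, fell as well, from 918 ± 47.3 to 424 ± 55.6 normalized counts (SD, n = 3; log2 fold change -1.12, SE 0.14, edgeR adjusted p = 0.000261). It is named after its values were seen. Pou2f3 was at 0, and the other Ikaros relatives were at 0 (Ikzf3, Ikzf4), held a single count (Ikzf2) or did not pass the test (Ikzf5, -0.08, edgeR adjusted p = 0.828). Of the other Ebf genes, Ebf2 and Ebf3 were at 0 and Ebf4 held 3 counts in all.

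Of the adaptor and the kinase, the adaptor was called lower and the kinase did not pass the test. Their changes were not tested against each other. Blnk, the adaptor that joins the kinase Syk to Btk and phospholipase C, had 1156, 1167 and 1382 normalized counts in DMSO and 677, 597 and 770 with SKI-II. The groups lay well apart. The means were 1235 ± 128 and 681 ± 86.4 (SD, n = 3), which gave a difference of -0.86 on the log2 scale (SE 0.14, edgeR adjusted p = 0.00122).

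Btk, the Tec-family kinase downstream of Blnk, had 1004, 988 and 855 normalized counts in DMSO and 883, 1033 and 819 with SKI-II. Its groups overlapped, with means of 949 ± 82.2 and 912 ± 110.2 (SD, n = 3). The log2 fold change of -0.06 (SE 0.14, edgeR adjusted p = 0.769) has an approximate 95% interval of -0.32 to 0.21. Btk contains a pseudogene, Gm15154, on the opposite strand. Lcp2, the Blnk relative of T and myeloid cells, did not pass the test either (-0.03, edgeR adjusted p = 0.881), and Clnk was at 0. Txk, a Btk relative, was called higher at 1.00 (SE 0.34, edgeR adjusted p = 0.0436), a call that held in 5 of 13 alternative settings.

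The promoter of Blnk is shown because it holds both the octamer that Oct factors bind and an E-box. These are the 250 bases before its RefSeq start, chr19:40994222-40994471 on the minus strand of GRCm38.p6, with the octamer and the E-box in capitals, both lying there as the reverse complement of the letters searched.
Blnk promoter: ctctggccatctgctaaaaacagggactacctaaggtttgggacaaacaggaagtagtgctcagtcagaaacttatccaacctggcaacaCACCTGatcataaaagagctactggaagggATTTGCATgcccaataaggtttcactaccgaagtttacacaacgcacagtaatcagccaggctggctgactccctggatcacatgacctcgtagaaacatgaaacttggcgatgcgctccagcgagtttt
The octamer ATGCAAAT begins 130 bases and the E-box CAGGTG 160 bases before the start. Searched on both strands, the octamer was present in 1.74% and this E-box in 20.2% of 32851 mouse promoters. The windows behind all shares given here were longer than the stretch shown. They also took in bases just past the start. An ETS motif (GAGGAAGT, in 3.2% of promoters) and the EBF motif (TCCC and GGGA with 2 bases between them, in 0.904%) had no match before Blnk. None of the 4 motifs matched in the promoters listed for Pou2f2, Ikzf1, Btk, Pou2af1 and Ebf1, and Cd79a had an E-box. A match describes letters in the window and not a bound site.

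Per kilobase of exon, in counts scaled to library size and length (CPM per kb), the members formed an ordered series in DMSO. Btk (18.8 ± 1.63 CPM per kb, SD, n = 3) and Ikzf1 (16.7 ± 0.741) were nearest to each other at the top, followed by Blnk (12.9 ± 1.33), Ighm (8.16 ± 1.80), Pou2f2 (2.26 ± 0.167) and Cd79a (0.0701 ± 0.0645). The values of neighbours in this order lay further apart than the sum of their SDs except for Btk and Ikzf1. With SKI-II, Ikzf1 (19.4 ± 1.42) and Btk (18.05 ± 2.18) were again within their spread, Blnk stood at 7.09 ± 0.899 and Pou2f2 at 1.16 ± 0.187. Ighm had dropped from the fourth place to below Cd79a, at 0.0228 ± 0.0200 against 0.178 ± 0.0343.

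**Figure D3:**
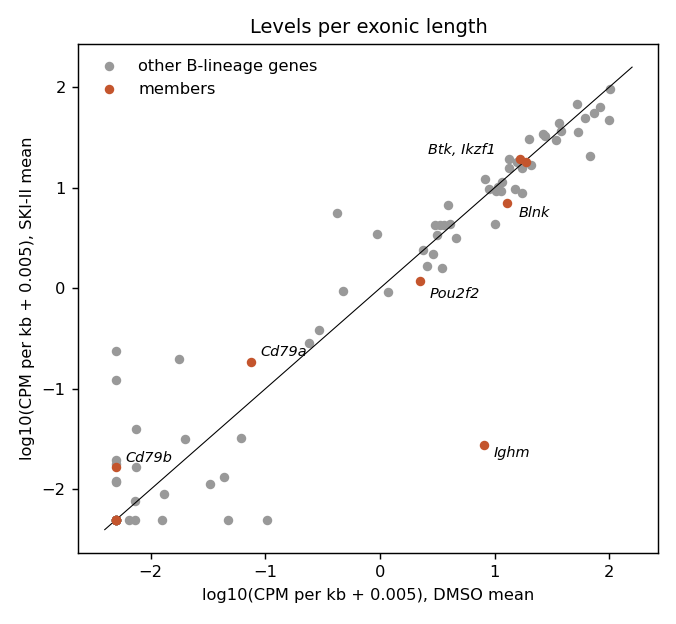
Each point is a gene, with its mean level in DMSO on the x axis and in SKI-II on the y axis, as log10(CPM per kb of exon + 0.005), for the members (orange) and the other B-lineage genes (grey). The line marks equal levels. Ighm lies far below the line, at 8.16 in DMSO and 0.0228 in SKI-II, while Ikzf1 and Btk lie close to it.

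Other genes of the lineage were read from 4 lists of 82 genes in all, members not included. Of these, 17 had no count, 19 had counts but too few for the test, and 46 were tested, with 11 lower, 8 higher and 27 not called, beside 19.7% lower and 18.4% higher among all genes tested. Without DMSO replicate 2, the count higher was 4, and 11.97% of the 12589 genes then tested were higher. Their median log2 fold change was -0.00, beside 0.00 over all genes tested. None of the 11 immunoglobulin constant and J-chain genes reached the test, 7 of them having no count.

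Among 21 receptor partners, pre-B and surface genes, 5 were tested, of which 0 fell and 1 rose, with a median of 0.33. Over all genes tested, 19.7% fell and 18.4% rose. The gene that rose was Bank1, a scaffold protein of B-cell receptor signalling. It had 120, 104 and 113 normalized counts in DMSO and 264, 436 and 543 with SKI-II, with no overlap (log2 fold change 1.88, SE 0.25, edgeR adjusted p = 0.000417). Genes not called included Fcrl1, Il7r and Cxcr5. Fcrl1, at 15.7 ± 3.14 CPM per kb in DMSO and 18.2 ± 4.48 with SKI-II (SD, n = 3), overlapped between the groups (0.21, SE 0.20, edgeR adjusted p = 0.447). These 3 are named after their values were seen. Ms4a1, Blk, Igll1 and Rag1 were at 0 throughout. A few very low genes had counts mainly in 1 group. Vpreb1, part of the surrogate light chain, had 0 counts in DMSO and 9, 1 and 3 with SKI-II, at least 3.87-fold higher. Most of these counts were from SKI-II replicate 1, and the limit was 1.66-fold without it, 2.46-fold without DMSO replicate 1 and 2.49-fold without DMSO replicate 3. Cr2, a complement receptor, had 1, 0 and 0 against 8, 4 and 1. The ratio for Cr2 was 11.6, with an exact 95% counting interval of 1.74 to 494, and it was 6.22 without SKI-II replicate 1, 17.5 when replicate 3 of SKI-II was left out and 7.47 without DMSO replicate 3. When DMSO replicate 1 was left out, Cr2 had no DMSO count and was at least 2.46-fold higher. Vpreb3, with 0 against 6 counts summed over a group (at least 1.79-fold higher), and Rag2, with 0 against 3, had counts in SKI-II replicate 3 alone. Other low genes of the list had fewer counts with SKI-II, Fcer2a with 4 against 1, Dntt with 6 against 3 and Tnfrsf13c with 3 against 1. These low genes were named after their values were seen.

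Among 21 transcription factors and their antagonists, 13 were tested, 3 fell and 2 rose, with a median of -0.11. These calls stand beside 19.7% lower and 18.4% higher over all genes tested. Bach2, a repressor that restrains plasma cell formation, had 3, 1 and 2 counts in DMSO and 24, 49 and 24 with SKI-II (log2 fold change 3.88, SE 0.68, edgeR adjusted p = 0.000748). Id3, an inhibitor of E proteins, went from 10, 9 and 15 counts to 194, 242 and 44 (3.74, SE 0.67, edgeR adjusted p = 0.00179). SKI-II replicate 3 was far below the other SKI-II libraries for Id3 but still above every DMSO library. Mef2c, a MADS-box factor of B and myeloid cells, fell from 2520 ± 194 to 1090 ± 231 normalized counts (SD, n = 3; -1.21, SE 0.16, edgeR adjusted p = 0.000397). The E protein gene Tcf3 and Spi1, which encodes PU.1, did not pass the test, at -0.31 and -0.11 (edgeR adjusted p = 0.0558 and 0.512). Tcf4, another E protein gene, was called lower (-0.42, SE 0.11, edgeR adjusted p = 0.0169). Tcf3, Spi1 and Tcf4 are named after their values were seen. Pax5 had 1 count in each group.

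Among 29 genes of receptor signalling that myeloid cells also use, 28 were tested, 8 fell and 5 rose, with a median of -0.07. The shares over all genes tested were 19.7% lower and 18.4% higher. Rasgrp3, an exchange factor that activates Ras, fell from 6376 ± 388 to 1932 ± 429 normalized counts (SD, n = 3; log2 fold change -1.72, SE 0.17, edgeR adjusted p = 6.67e-05). Ptpn6, the phosphatase SHP-1, fell by 1.08 on the log2 scale (SE 0.20, edgeR adjusted p = 0.00261), and Pik3cd, a catalytic subunit of phosphoinositide 3-kinase, fell by 0.94 (SE 0.12, edgeR adjusted p = 0.000324). Syk, the kinase directly upstream of Blnk, rose by 0.53 (edgeR adjusted p = 0.023) and is named after its values were seen.

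**Figure D4:**
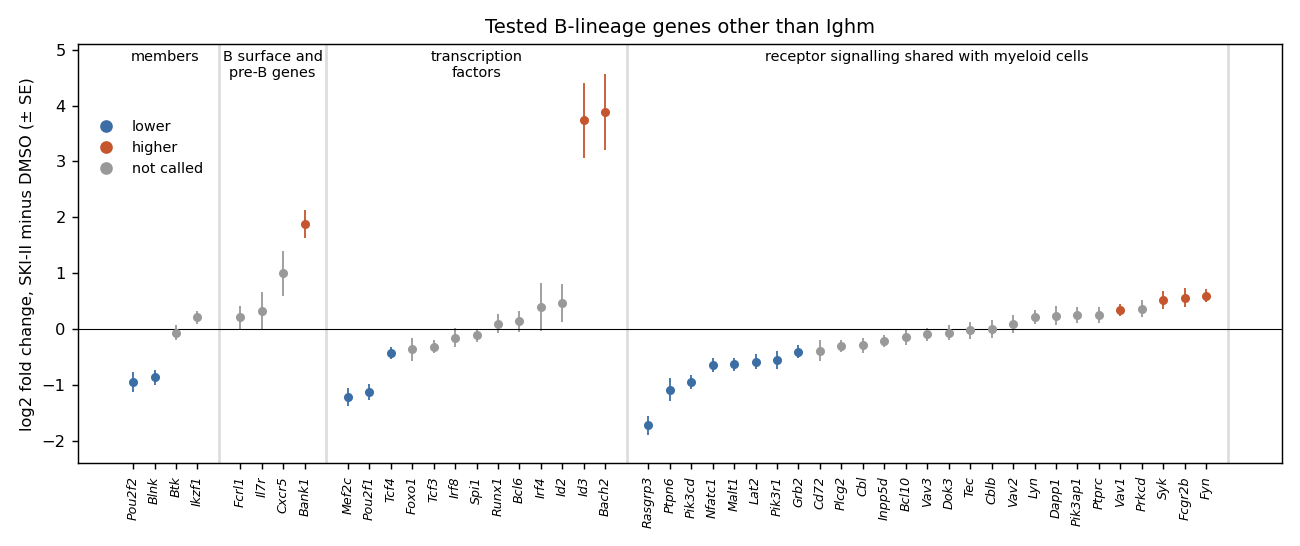
Points give the log2 fold change (SKI-II minus DMSO) and bars its SE for the members and list genes tested, without Ighm and 2 genes not reported here, in 4 sections from left to right. Blue marks genes lower, orange genes higher and grey genes not called at an adjusted p under 0.05 in edgeR. Calls lie on both sides of 0, from Rasgrp3 at -1.72 to Bach2 at 3.88.

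The genes whose profile over the 6 libraries was most like that of Ighm were Sema6d, Fabp4, Gja1, Cybb and Klhl30. Likeness was measured as the Euclidean distance between centred log2 CPM, and since SKI-II against DMSO dominates such profiles, these are genes with fewer counts in every SKI-II library. Their falls were not of equal size. Sema6d (distance 3.23) had 48, 19 and 23 counts in DMSO and none with SKI-II, and Gja1 (3.30) had 27, 32 and 20 against 0. Fabp4 (3.28), Cybb (3.41) and Klhl30 (3.45) kept some counts with SKI-II, Cybb between 235 and 524 against 3016 to 7691 in DMSO. Among the 12274 genes tested, the members came at place 1044 (Pou2f2, distance 6.90), place 1225 (Blnk, 7.02), place 5299 (Btk, 7.94) and place 7721 (Ikzf1, 8.28).

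The label of the cells was checked against marker lists. Of 11 macrophage markers, 10 were tested and Marco was at 0, and their summed counts were 109028 to 204760 per DMSO library and 75096 to 131500 per SKI-II library. Lyz2, Adgre1, Itgam, Mrc1 and Msr1 fell and Cd14 and Fcgr1 rose, 5 and 2 of the 10, beside 19.7% lower and 18.4% higher among all genes tested. The 11 B-cell markers, which include Igkc, Cd79a and Cd79b, summed to 1 to 6 counts per DMSO library and 9 to 22 per SKI-II library. None reached the test, and Ms4a1, Igkc and Igll1 were among those at 0. These 11 markers were near 0 in the DMSO libraries that held 186 to 284 Ighm counts, but Fcrl1, a surface protein of B cells from the receptor partner list, had 1117, 699 and 734 counts in the same libraries. The 10 T-cell markers summed to 108 to 188 and 184 to 352 counts, mostly from Lck, which rose (log2 fold change 0.97, SE 0.20, edgeR adjusted p = 0.00412), and Cd5, which did not pass the test (-0.84, edgeR adjusted p = 0.109), with Cd3g, Cd8a, Cd8b1, Thy1 and Trac at 0. What part the moves of these markers had in the Ighm result was not tested. Total counts per library ranged from 12495957 to 20050677.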

How the data were processed

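RNA was poly(A)-selected and sequenced in 6 libraries. Per the labels and the processing notes, the authors trimmed reads with Trimmomatic 0.36, mapped them with STAR 2.5.2b and counted them with featureCounts of Subread 1.5.2, and they deposited raw counts per Ensembl gene. The build of the genome, the release of the annotation and whether strand was used in counting are not given in the sources. GENCODE M21 (GRCm38) supplied names, positions and exonic lengths, and 0.0102% of counts lay on identifiers outside it.

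Groups were compared with the quasi-likelihood test of edgeR 4.0.16 (R 4.3.3), with TMM scaling, filterByExpr by group (minimum count 10, minimum total 15) and p-values adjusted by Benjamini-Hochberg over the 12274 genes that passed. A gene was called where the adjusted p was under 0.05. Normalized counts are scaled to the mean effective library of 16042438. Ratios of low counts carry exact 95% intervals, and 3 counts over a group were the limit for a count of 0. Intervals of log2 fold changes were made from the SE with a normal quantile. With 3 libraries per group they are approximate and can be narrower than the test allows. Promoters were those of RefSeq, which listed none for Ighm, Igkc and Cd79b in the table used here.

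The members and gene lists were chosen with earlier results of these data known. Named were all members, in each list the 3 called genes of largest change and the called gene of largest opposed change, the 3 immunoglobulin genes with the most counts, the 5 genes nearest to the Ighm profile, the nearest gene tested on each side, and markers. Genes beside this rule are given as segments, relatives of members or genes at or near 0, or are said to be named after their values were seen. Families of the members, and limits of low counts without each library, were added after seeing the data. Alternatives were DESeq2 1.42.0, limma-voom (limma 3.58.1), other scalings and filters, a fold threshold, the replicate number as a block and each library left out. Results of some genes of the lists, which remain in the counts, are not reported here. The fits were tested on simulated data. Figures were drawn with matplotlib.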

Additional observations from a re-analysis of the deposited data

How the results depend on the processing

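The 2 members other than Ighm called lower, Pou2f2 and Blnk, were called in each of 13 alternative fits, with log2 fold changes of -1.09 to -0.87 (highest adjusted p 0.0154) and -0.96 to -0.77 (highest adjusted p 0.00823). Ikzf1 and Btk were called in 0 of them. With a log2 fold change past 1 also required, 0 members were lower (0 also at an unadjusted p under 0.05 in edgeR, with DESeq2 and with limma-voom), 4 list genes were lower and 3 higher. With 1 library left out in turn, list genes higher numbered 4 to 8, the 4 being without DMSO replicate 2, and list genes lower 8 to 11, while over all genes tested the shares were 11.97% to 17.7% higher and 14.03% to 18.9% lower. Signs near 0 changed when 1 library was left out for Btk (-0.16 to 0.01, above 0 without SKI-II replicate 3), Ikzf5 (-0.30 to 0.02) and Lcp2 (-0.16 to 0.07), the last pair above 0 without SKI-II replicate 1 or DMSO replicate 3. The cause was not tested. The Ighm ratio ranged from 0.00180 to 0.00421 when a library was left out, the highest being without SKI-II replicate 3, which had no Ighm count. Deviations of same-numbered libraries had r = 0.25, 0.01 and 0.46, against -0.46 to 0.30 for libraries of different number. These values do not settle whether the numbers mark pairs, and the main fit left the numbers out. With the replicate block, 2 members other than Ighm were lower and 0 higher, and 14 list genes were lower and 9 higher, beside 23.0% lower and 22.5% higher over all genes tested. Low counts limit Cd79a, Cd79b and the segments, which could not be tested.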

Other observations

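The plasma cell markers, late products of the B lineage, were read as well. Sdc1, the surface proteoglycan syndecan-1, had 723, 641 and 863 counts in DMSO and 207, 336 and 560 with SKI-II, and fell (log2 fold change -1.23, edgeR adjusted p = 0.00211). Tnfrsf17, a receptor for the survival factors BAFF and APRIL, had 9, 3 and 3 counts in DMSO and 0 in each SKI-II library, too few for the test. Xbp1, a regulator of secretion in many cells, did not pass the test (0.35, edgeR adjusted p = 0.0871). Mzb1, a chaperone of immunoglobulin assembly, had 11, 12 and 2 counts against 3, 3 and 12, and its groups overlapped. Jchain had 1 count and Prdm1 2 counts, all with SKI-II.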
